A study of Mus musculus with 8 samples.

Results

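Olfactory and vomeronasal receptor genes were taken as a set of loci that are largely silent outside sensory neurons, and the open chromatin regions found in and around them were counted in leukemic progenitors of the mouse. Open chromatin was read by ATAC-seq, in which a transposase inserts sequencing adapters where DNA is accessible. The peak lists of 8 libraries were merged wherever peaks shared at least 1 bp, on the 19 autosomes and X. A merged region was taken as a receptor region when its strongest summit lay inside, or within 20 kb of, a protein-coding gene of the mm10 assembly whose symbol starts with Olfr, Vmn1r or Vmn2r. There were 593 such regions among 138385 merged regions (0.429%). The rule used positions and symbols and no measured difference between groups.

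All libraries came from sorted leukemic granulocyte-macrophage progenitors (L-GMPs), gated as CD34+ and CD16/32+ among c-Kit+ cells without Sca-1 or lineage markers, of the bone marrow of mice with acute myeloid leukemia driven by the fusion oncogene MLL-AF9, which every group carried. The study compared animals with and without Dek, the gene of a chromatin-bound nuclear protein, and animals in which 4 serines of DEK, named in the genotype, were alanine. In set 1, FL 1 and FL 2 were Dekfl/fl controls, and KO 1 and KO 2 were Dekfl/fl,MX1-Cre, where Cre is driven by an interferon-inducible promoter. In set 2, FL 3 was a Dek+/+ control, KO 3 was Dekfl/fl;Tie2-Cre, where Cre is driven by an endothelial and hematopoietic promoter, and 4S-A 1 and 4S-A 2 were Dek-Ser306A/Ser308A/Ser311A/Ser312A. The labels give no age and do not say whether libraries of a group came from separate animals, so a p-value covers only the spread between these libraries. The driver of the knockout differed between the sets, and 4S-A had 1 control library in its set. MX1-Cre stands in the labels of the set 1 samples alone; the design text of the series speaks of Tie2-Cre.

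Each olfactory sensory neuron of the nose transcribes 1 allele of 1 Olfr gene, which encodes a G protein-coupled odorant receptor. The Vmn1r and Vmn2r genes encode the receptors of the vomeronasal organ, which detect pheromones and other social cues. Nearly all of these genes sit in tandem arrays that are AT-rich and carry few CpG sites. The Olfr genes that an olfactory neuron does not transcribe are packed into heterochromatin. Whether L-GMPs carry such heterochromatin was not measured here. In olfactory neurons, enhancers bound by LHX2, EBF and LDB1 take part in the choice of a receptor.

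The gene table held 1465 receptor genes among 21627 protein-coding genes: 1110 Olfr, 231 Vmn1r and 124 Vmn2r. Their spans with 20 kb on either side covered 42.1 Mb, called receptor territory here. Of this, 37.95 Mb lay over 20 kb from any other protein-coding gene. Of the 593 receptor regions, 243 (41.0%) had another protein-coding gene within 20 kb, and 350 had only receptor genes there.

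The lists held 51510 to 104605 peaks per library. Read depth is not given in the sources used here, so list length is the only sign of depth, and set 1 lists were the shorter ones. Strength is given as the percentile of a peak's −log10 q within its own list (100 is the strongest), and percentiles from lists of unequal length are a description and not a measure of change. A region over the Dek gene (chr13:47104867-47106804) was held by all 8 libraries at percentiles of 65.7 to 89.2, which does not check the knockout, since the labels name no deleted exon. Of 12 L-GMP marker genes, 11 had a region in every library and Prtn3 had none in any. Erythroid markers had a region at 2 to 5 of 8 genes per library, T cell markers at 3 to 5 of 5 and B cell markers at 2 to 5 of 5. Of 16 olfactory and vomeronasal sensory neuron markers, 9 to 12 per library had a region. Omp, the marker of mature olfactory neurons, and Cnga2, Rtp1 and Trpc2 had none in any library, while Cnga4, Cngb1, Gnal and Rtp2 had a region in every library. Of all 21627 protein-coding genes, 62.7% had a region within 1 kb in every library and 77.3% in at least 1, so regions at marker genes do not identify cell types by themselves. In bulk chromatin, fewer cells with an open site and less opening per cell cannot be told apart.

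The annotated start of a receptor gene very rarely lay under a region. Windows from 250 bases before to 50 after the gene start were available for 1267 receptor genes (RefSeq, GRCm38.p6, the assembly also called mm10), and 14 of these genes (1.10%, exact 95% interval 0.605% to 1.85%) had a region over any base of the window in at least 1 library. The same count was 10774 of 16006 (67.3%) for other protein-coding genes. An annotated start need not be a promoter. The last 50 bases of the Olfr1310 window below begin with ATG, the letters of a start codon. Where the annotation begins at the coding sequence, the window can miss a promoter further upstream. How many receptor genes this holds for was not counted, so the shares may compare unlike sites. The windows of 4 of the 14 genes are printed here 5′ to 3′ on the strand of the gene. They were chosen after their values were seen: Vmn2r29 for a region in all 8 libraries, Olfr593 and Olfr1310 for regions that some libraries held strongly and others lacked, and Olfr550 for a region that only the 4S-A libraries held. Capitals mark matches to 7 short motifs on either strand. They are GAGGAAGT for PU.1, TGTGGT for RUNX, TTGCNNAA for C/EBP, TGANTCA for AP-1, AGATAA for GATA factors, TCCCNNGGG for EBF and TAATTA for LHX homeodomain factors.
Vmn2r29 (chr7:7278240-7278539, minus strand): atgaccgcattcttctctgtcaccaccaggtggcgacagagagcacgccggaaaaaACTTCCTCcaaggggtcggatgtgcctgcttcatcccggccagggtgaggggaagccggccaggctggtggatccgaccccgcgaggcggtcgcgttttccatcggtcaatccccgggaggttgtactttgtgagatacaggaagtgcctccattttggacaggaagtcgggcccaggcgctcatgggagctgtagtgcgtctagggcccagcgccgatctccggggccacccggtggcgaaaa
Olfr593 (chr7:103211612-103211911, plus strand): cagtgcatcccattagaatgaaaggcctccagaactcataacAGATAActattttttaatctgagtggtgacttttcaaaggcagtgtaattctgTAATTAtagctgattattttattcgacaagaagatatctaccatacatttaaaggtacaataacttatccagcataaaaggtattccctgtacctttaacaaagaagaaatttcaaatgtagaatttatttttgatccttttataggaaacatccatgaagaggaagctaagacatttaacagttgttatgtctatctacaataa
Olfr1310 (chr2:112009135-112009434, minus strand): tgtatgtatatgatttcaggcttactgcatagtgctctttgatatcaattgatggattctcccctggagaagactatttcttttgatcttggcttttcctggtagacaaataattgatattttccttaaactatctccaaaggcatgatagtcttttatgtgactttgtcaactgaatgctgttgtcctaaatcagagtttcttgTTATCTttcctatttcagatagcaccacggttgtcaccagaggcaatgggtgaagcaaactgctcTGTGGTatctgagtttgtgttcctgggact
Olfr550 (chr7:102578219-102578518, plus strand): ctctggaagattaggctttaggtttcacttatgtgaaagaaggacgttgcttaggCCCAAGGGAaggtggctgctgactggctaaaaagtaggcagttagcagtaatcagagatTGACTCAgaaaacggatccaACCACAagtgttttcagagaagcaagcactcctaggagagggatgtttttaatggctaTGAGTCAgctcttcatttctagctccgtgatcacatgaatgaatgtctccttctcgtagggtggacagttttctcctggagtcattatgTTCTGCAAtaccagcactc

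The region over the start of Vmn2r29, a vomeronasal type 2 receptor gene, was held by all libraries. Its percentiles were 71.5, 77.0 and 83.8 in the controls, numbered FL 1 to FL 3. In the knockouts they were 90.3, 86.1 and 86.2, and the 4S-A libraries had 91.0 and 84.0. It covered all 300 bases of the window, and Clcn4, the gene of a chloride and proton exchanger, lay 3937 bp from its summit. The window had a GC content of 62.3% and 23 CpG sites, against a median of 35.7% and 1 CpG over the 1267 receptor windows and 57.7% and 15 over the other genes. Vmn2r29 thus had a window composition on the side of the other genes. It had 1 motif match, to PU.1.

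The Olfr593 region covered 22 bases of its window, which held neither of the 2 motif matches (to GATA and LHX), and extended into the gene. Its percentiles were 33.6 in FL 1, 50.3 in FL 2, 41.3 in FL 3, 88.3 in KO 3, 91.9 in 4S-A 1 and 90.01 in 4S-A 2, and KO 1 and KO 2 held no peak there. The set 1 knockouts thus lacked a region that the set 2 knockout held at a higher percentile than every control. The Olfr1310 region covered 148 bases of the window. FL 1 and FL 2 held no peak, FL 3 held one at percentile 0.876, the knockouts at 33.7, 59.5 and 19.7, and the 4S-A libraries at 89.2 and 81.4. No other protein-coding gene lay within 219880 bp of the Olfr1310 summit. The region over Olfr550 covered its whole window and was held by 4S-A 1 at 64.1 and 4S-A 2 at 65.1 and by none of the other 6 libraries. Its window had 5 motif matches, 2 of them to AP-1 and 1 each to RUNX, C/EBP and EBF, and Trim21, the gene of an antibody receptor with ubiquitin ligase activity, lay 12874 bp away.

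**Figure D1:**
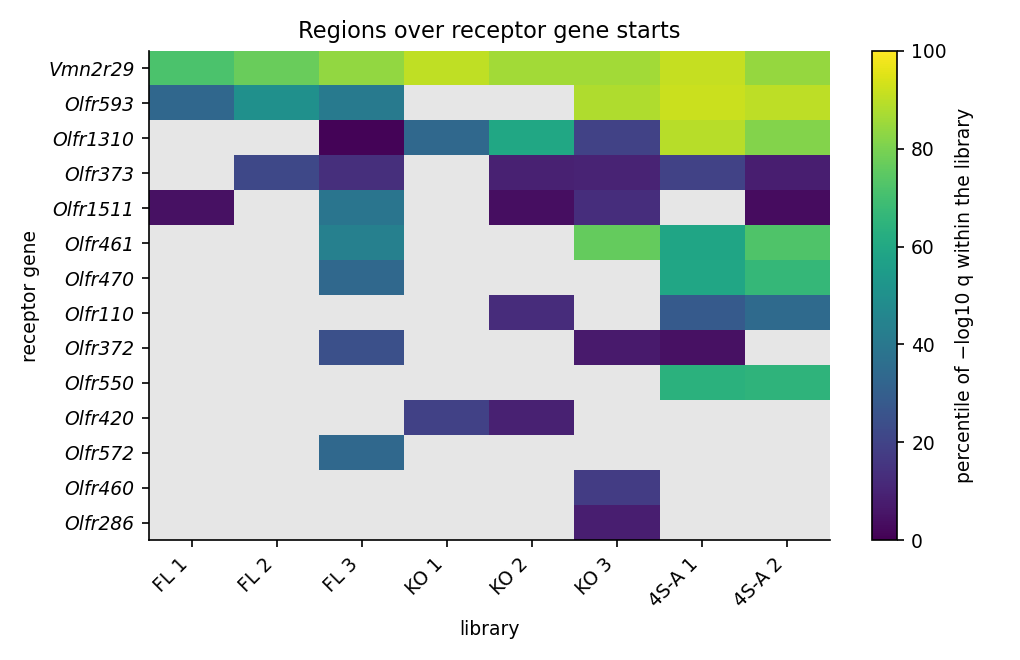
Percentile of −log10 q within the library (colour, 0 to 100) of the region over each of the 14 receptor gene starts (rows) in each of the 8 libraries (columns), with grey for no peak. Vmn2r29 alone was held by all 8 libraries, Olfr550 was held by both 4S-A libraries only, and set 1 libraries held 3 to 6 of the 14 against 9 in each set 2 library.

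Counted per library, 3 receptor gene starts lay under a region in FL 1, FL 2 and KO 1 and 6 in KO 2. Every set 2 library, whatever its genotype, held 9. The other gene starts were at 59.5% to 64.5% in every library. Among the remaining gene starts, Olfr461 was held by all 4 libraries of set 2 (FL 3 at 43.7, KO 3 at 76.2, the 4S-A libraries at 58.7 and 72.4) and by none of set 1. Olfr470 was held at 33.6 in FL 3 and at 59.1 and 66.5 in 4S-A. Olfr420 was held at 19.4 in KO 1 and 9.05 in KO 2 only. Olfr373, Olfr1511, Olfr110 and Olfr372 were held by 3 to 6 libraries at mean percentiles of 12.1 to 25.1. Olfr572, Olfr460 and Olfr286 were each held by 1 library.

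Matches to the 7 motifs were found in receptor windows at 6.71% (PU.1), 19.4% (RUNX), 15.7% (C/EBP), 15.9% (AP-1), 26.6% (GATA), 3.24% (EBF) and 16.7% (LHX) of 1267 genes. Over all genes with a window the shares were 3.19%, 14.9%, 10.3%, 7.14%, 10.0%, 7.15% and 4.60% in the same order. Every motif except EBF was thus more frequent in receptor windows, whose base composition differs from that of other genes. Some receptor windows may also lie at coding starts and not at promoters. No motif contains another, and a match is a string of letters and not a bound site. Reads from near-identical copies can be lost or shared: 24.9% of receptor windows held a stretch of 50 bases that also occurs in the window of another gene, 13.6% for Olfr, 54.9% for Vmn1r and 64.1% for Vmn2r, against 15.2% for other genes. The authors' handling of reads that map to several places is not given in the sources used here.

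Receptor territory as a whole held few open regions. Only 402 of 1465 receptor genes (27.4%) had a region within 20 kb, against 18034 of 20162 other protein-coding genes (89.4%). The union of the 8 libraries gave 14.1 receptor regions per Mb of receptor territory and 78.6 regions per Mb around other genes. Ground shared with other genes was the denser part. Within 20 kb of another gene, receptor territory held 58.3 regions per Mb, and without one it held 9.22. It was 21.3 at 20 to 50 kb from the nearest other gene, 11.2 at 50 to 100 kb, 7.59 at 100 to 200 kb and 4.32 at 200 to 400 kb, and was 5.72 beyond 400 kb.

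**Figure D2:**
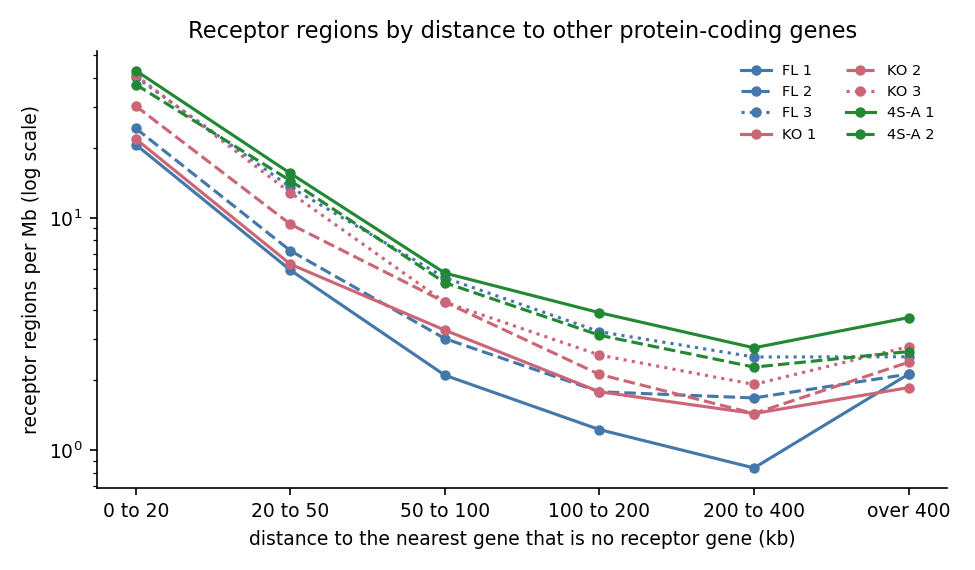
Receptor regions per Mb of receptor territory (vertical axis, log scale) by distance to the nearest protein-coding gene that is no receptor gene (horizontal axis, kb), 1 line per library, with FL in blue, KO in red and 4S-A in green. In the nearest class libraries held 20.6 to 42.9 regions per Mb and at 200 to 400 kb they held 0.840 to 2.76; in every class the set 2 libraries lay at or above those of set 1.

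By family, the union held 17.4 regions per Mb around Olfr genes (469 regions), 9.19 around Vmn1r genes (70) and 7.05 around Vmn2r genes (54). With no other gene within 20 kb, the values were 10.8, 7.004 and 6.03 per Mb. The Olfr lead was thus smaller away from other genes. Inside a receptor gene lay 73 summits: 58 in Olfr, 3 in Vmn1r and 12 in Vmn2r genes. Regions with summits 15 to 20 kb from a receptor gene, just inside the rule, numbered 109 with a median mean percentile of 27.5, and those 20 to 25 kb away, just outside it, numbered 85 with a median of 40.7.

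The receptor genes formed 71 clusters when genes at most 1 Mb apart were joined. The most receptor regions (55) lay in the cluster on chromosome 7 from 102476773 to 105369317, which holds 126 genes. The largest cluster of chromosome 2, with 222 genes from 85330967 to 90401674, held 33 regions, and none of these had another gene within 20 kb. The 9 genes from 98186011 to 98498406 of chromosome 15 had 30 regions, and clusters of 48 genes on chromosome 13 and 38 genes on chromosome 14 had 28 each. In 13 clusters, with 50 genes in all, no library held a receptor region, and regions over 20 kb from a receptor gene were not counted. The largest of these were the 21 genes from Olfr459 to Olfr47 on chromosome 6 and the 10 genes from Vmn2r8 to Vmn2r17 on chromosome 5. They were followed by 5 genes from Olfr1378 to Olfr1375 on chromosome 11, 4 from Olfr55 to Olfr63 on chromosome 17, and 2 from Vmn1r186 to Vmn1r187 on chromosome 7. The last cluster and 2 others, with 4 genes in all, lie before the first region of any kind on their chromosome, so their lack of regions carries no information. That leaves 10 such clusters with 46 genes.

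Receptor regions were then compared between knockouts and controls, which asks whether loss of DEK went with opening of these loci. FL 1, FL 2 and FL 3 held 169, 210 and 354 receptor regions, the knockouts held 193, 260 and 335, and the 4S-A libraries held 395 and 343. Per Mb, the controls held 4.01, 4.99 and 8.40, the knockouts 4.58, 6.17 and 7.95, and the 4S-A libraries 9.38 and 8.14. The FL and KO values overlapped, and the set 2 libraries were all above those of set 1. The mean was 5.80 ± 2.31 per Mb in FL and 6.24 ± 1.69 in KO (SD, n = 3 each), a difference of 0.435 (exact two-sided permutation test, p = 0.8, where 0.1 is the smallest p that 3 against 3 allows). Within set 1 KO was higher by 0.878 per Mb and within set 2 the difference was -0.451. The sign turned when FL 1 (-0.459) or KO 3 (-0.423) was left out and in lists of equal length (-0.182).

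Density moved with list length, so it was divided by the density around other protein-coding genes in the same library. This relative density was 0.141, 0.165 and 0.161 in the controls, 0.146, 0.153 and 0.150 in the knockouts, and 0.160 and 0.154 in the 4S-A libraries. The KO values lay between the lowest and the highest FL values. The means were 0.155 ± 0.0128 in FL and 0.149 ± 0.00357 in KO (SD, n = 3 each), a difference of -0.00597 (exact permutation p = 0.5, and 0.8 after Benjamini-Hochberg adjustment over 5 measures). Away from other genes the relative density was 0.0767, 0.0948 and 0.0937 in the controls, 0.0854, 0.0874 and 0.0813 in the knockouts, and 0.0972 and 0.0932 in the 4S-A libraries. The KO and FL difference was -0.00370 (exact permutation p = 0.6). A difference in either direction was not detectable with these libraries. The 4S-A mean of 0.157 differed from the single control of its set by -0.00365, with no test.

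**Figure D3:**
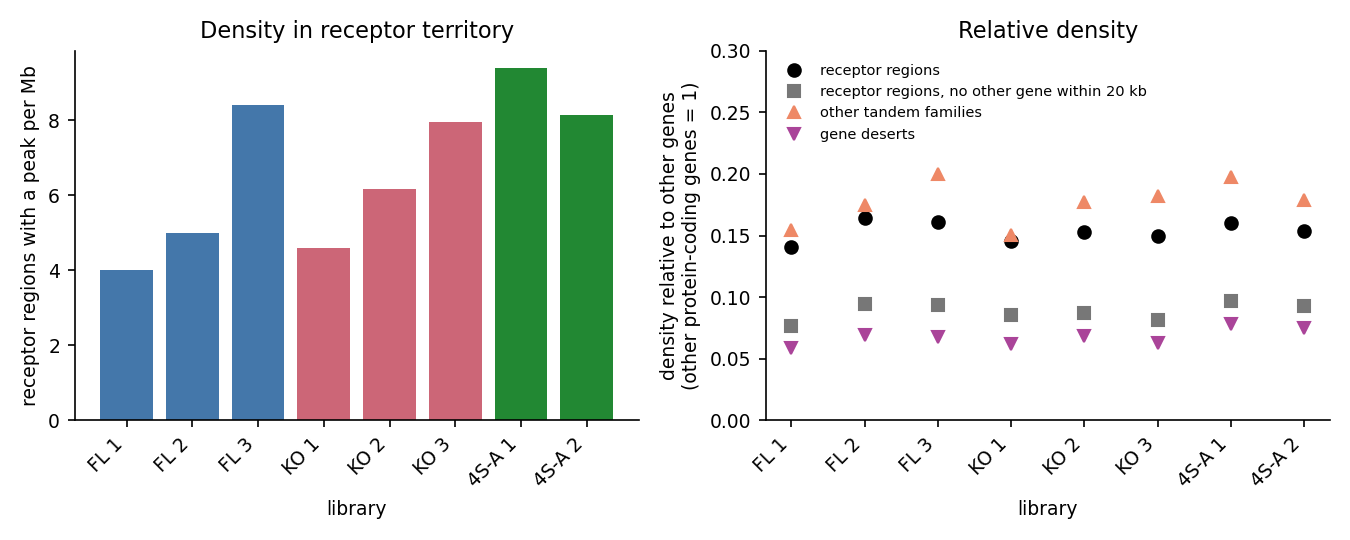
Left, receptor regions with a peak per Mb of receptor territory in each library (FL blue, KO red, 4S-A green). Right, density relative to that around other protein-coding genes of the same library (set to 1) for receptor regions, receptor regions with no other gene within 20 kb, other tandem families and gene deserts. Density was highest in the 4 set 2 libraries, at 7.95 to 9.38, whereas relative density of receptor regions stayed between 0.141 and 0.165.

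Other kinds of locus were counted the same way. Around zinc finger genes with a Zfp symbol, many of which also lie in arrays, the mean relative density was 1.12 ± 0.0741 (SD, n = 8), against 0.154 ± 0.00809 for receptor genes. Around other tandem families of sensory, skin, liver or reproductive tissue (Taar, Tas2r, Krtap, Defb, Mup, Sprr, Lce, Skint, Scgb and Esp symbols) it was 0.177 ± 0.0177. Receptor density was lower in 8 of 8 libraries, with a mean difference of -0.0235 (exact two-sided sign-flip permutation over libraries, p = 0.0078125, the smallest 8 libraries allow, and 0.00977 after adjustment over 5 comparisons). The difference missed the threshold in lists of equal length (-0.00938, exact permutation p = 0.0625) and away from other genes (-0.00836, exact permutation p = 0.109), and turned to 0.0376 for summits inside genes alone. In gene deserts, over 200 kb from any protein-coding gene, relative density was 0.0677 ± 0.00655, and receptor density was higher in 8 of 8 libraries (the same exact permutation test, p = 0.0078125, adjusted 0.00977). That comparison includes receptor territory beside other genes. At 200 to 400 kb from other genes, receptor density was 0.840 to 2.76 per Mb against 1.67 to 4.55 in deserts, and was the lower value in 8 of 8 libraries; beyond 400 kb it was the lower value in 6 of 8. The 8 libraries pool all genotypes, so these are comparisons between kinds of locus and not between conditions. All libraries read the same loci, so the p-values cover agreement between libraries and not the spread between loci.

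Peaks that recur in no other library were counted as a measure of noise. Of the 593 receptor regions, 173 (29.2%) were held by 1 library, against 23.5% of all merged regions, and 106 (17.9%) by all 8, against 24.1%. Regions with only receptor genes around them carried this difference: 34.3% of them were held by 1 library and 11.7% by all 8, against 21.8% and 26.7% of those near another gene. Receptor regions held by 1 library were weak, with a median percentile of 8.92, near the 8.74 of all regions held by 1 library.

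**Figure D4:**
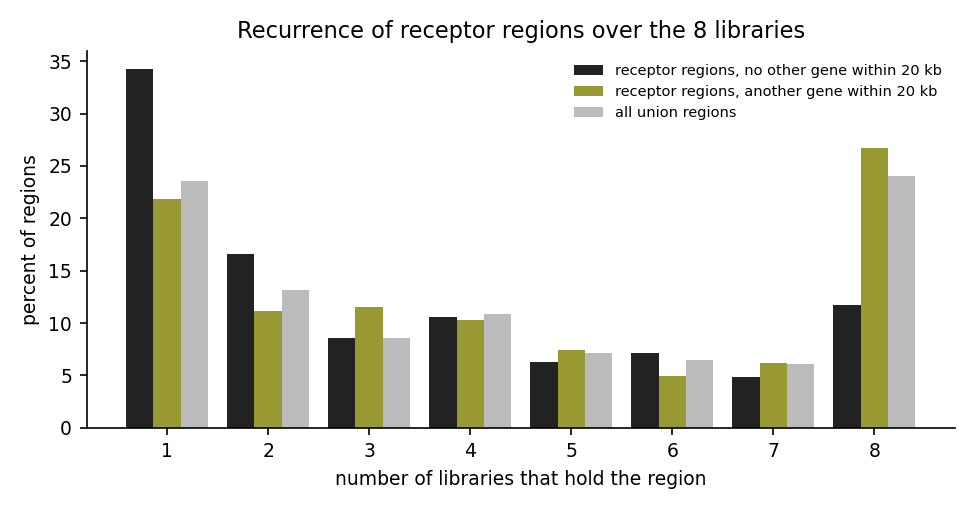
Percent of regions (vertical axis) by the number of libraries that hold them (horizontal axis), for receptor regions with no other gene within 20 kb, receptor regions near another gene and all merged regions. Regions with only receptor genes nearby were held by 1 library in 34.3% of cases and by all 8 in 11.7%.

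Per library, the share of receptor regions found in no other library was 5.92%, 18.6% and 8.19% in the controls, 6.74%, 5.77% and 6.27% in the knockouts, and 8.35% and 3.79% in the 4S-A libraries. FL 2 stood apart, with 39 such regions and an exact 95% interval of 13.6% to 24.5%, which covers counting error only. The same share over all regions of FL 2 was 8.12%, within a range of 3.23% to 8.12% over the libraries, and in gene deserts FL 2 had 29.02% against 4.92% to 16.1% elsewhere. The mean was 10.9% ± 6.75 in FL and 6.26% ± 0.483 in KO (SD, n = 3 each; exact permutation p = 0.3). Without FL 2 the difference of -4.64 percentage points became -1.11. No KO library was above 6.74%, and of the 4S-A libraries 1 lay just above FL 3 and 1 below it.

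The strength of receptor regions overlapped between FL and KO. The median percentile was 46.3, 41.7 and 41.3 in the controls, 44.8, 43.9 and 42.7 in the knockouts, and 47.4 and 48.1 in the 4S-A libraries, below the 50.7 to 51.9 of all regions in every library. The means were close (43.8 ± 1.05 against 43.1 ± 2.76, SD, n = 3 each; exact permutation p = 0.8). The 4S-A mean stood 6.38 above FL 3, and 3.78 below it when each list was reduced to its strongest 51510 peaks. The sign thus depended on which peaks were kept, and the cause was not tested. In those lists of equal length FL 3, 4S-A 1 and 4S-A 2 had medians of 48.7, 46.2 and 43.7.

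Of the 106 regions held by all 8 libraries, 65 had another protein-coding gene within 20 kb. The 10 strongest, at mean percentiles of 91.9 to 98.9, all did, and their summits lay inside that gene or within 162 bp of it. By −log10 q, the strongest was named for Vmn1r32 (chr6:66534855-66535887) and lay inside Mad2l1, a spindle checkpoint gene, at 98.5 to 99.4 in the 8 libraries. The next were named for Vmn1r4, at Nt5c3, a pyrimidine nucleotidase gene (96.6 to 99.9), and for Olfr15, beside Zfp174 (94.6 to 98.6). Those named for Olfr557, Olfr1393, Vmn2r30, Olfr550, Olfr1420, Olfr311 and Olfr221 lay at Trim68, Mgat1, Clcn4, Trim21, Patl1, Gm12258 and Zfp219. Their KO and FL means differed by at most 2.51 percentiles. The order held for −log10 q only. By fold enrichment the mean percentile of Vmn1r32 was 91.9, of Vmn2r30 74.97, of Olfr1393 69.8 and of Olfr221 65.0, below regions with no other gene near, such as those of Olfr1226 (97.8) and Olfr1301 (96.4).

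The other 41 regions held throughout had only receptor genes within 20 kb, and their median percentile was 71.8. These were picked out after the values were seen. The strongest lay 14297 bp from Vmn2r96 (chr17:18558157-18559750), 324242 bp from the nearest other gene, at 83.1 to 96.6. A region 2651 bp from Olfr1226 (chr2:89196172-89197150), 1233073 bp from the nearest other gene, had percentiles of 90.3, 94.3 and 89.6 in the controls, 86.9, 91.4 and 82.1 in the knockouts, and 87.6 and 89.96 in the 4S-A libraries, with FL and KO overlapping. A region inside Olfr1301 (chr2:111754355-111755094) had 81.3, 75.4 and 94.6 in the controls, 82.2, 82.8 and 90.5 in the knockouts, and 97.6 and 96.4 in the 4S-A libraries. Another, 9749 bp from Olfr266 (chr3:106831541-106832776), lay 42157 bp from Cd53, the gene of a leukocyte tetraspanin. It had 81.1, 85.4 and 96.0 in the controls, 70.4, 82.8 and 97.0 in the knockouts, and 99.2 in each 4S-A library, with every set 2 value above every set 1 value. Regions near Olfr1469, Vmn2r1, Olfr1044 and Olfr283 had mean percentiles of 87.3, 87.3, 82.5 and 80.0.

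Loss and gain of whole regions were counted next. A region was called lost when every FL library held it and no KO library did, and gained in the reverse case. Over all 6 libraries, 0 of 127 receptor regions held by every FL were lost, against 0.214% of all regions, and 3 of 149 held by every KO were gained (2.01%, exact 95% interval 0.417% to 5.77%), against 0.754%. These are presence calls with no test. In lists of equal length 0 of 106 were gained, against 0.706% of all regions. The loss of the 3 calls was fixed in advance. The KO 3 list was cut from 93041 to its strongest 51510 peaks, and the KO 3 peaks of these regions ranked below the cut. The gained regions were weak. The one 8598 bp from Olfr1394 had percentiles of 30.1, 4.96 and 23.7 in the 3 knockouts and was also held by 4S-A 1 (42.8) and 4S-A 2 (47.0), and its summit lay inside Btnl9. The one 4831 bp from Olfr463, 23217 bp from the eosinophil peroxidase gene Epx, had 14.8, 42.2 and 31.02 in KO and no peak in 4S-A. The one 7381 bp from Olfr1441 had 28.2, 34.8 and 23.8 in KO and no peak in 4S-A, and lay inside Pfpl. Leaving out 1 library loosens the rule, so the counts can only rise or stay. A rise therefore does not show that the calls rest on single libraries. The count of gained regions was 20 without FL 3, 10 without KO 1 and 11 without KO 3. The count of lost regions was 4 without KO 3, 2 without FL 1 or FL 3 and 1 without FL 2 or KO 2. The share of all regions under the looser rule is not given.

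Within set 1, 7 of 133 receptor regions were lost (5.26%, against 2.07% of all regions) and 33 of 169 were gained (19.5%, against 13.5%). Set 1 KO lists were longer than FL lists, at means of 65135.5 and 53198.5 peaks. In lists of equal length 13 of 132 receptor regions were lost (9.85%, against 5.01% of all) and 16 of 134 gained (11.9%, against 7.88%). The strongest lost region was that of Olfr593, whose window is printed above. The next lay 1774 bp from Olfr521, at 36.5 in FL 1, 55.5 in FL 2, 62.7 in FL 3 and 70.2 in KO 3, and at 73.5 and 67.1 in the 4S-A libraries. The same pattern, absent from KO 1 and KO 2 and present in KO 3, held for regions near Olfr323 and Olfr211. Of the gained regions the strongest lay near Olfr111 (60.8 in KO 1, 69.4 in KO 2), Olfr172 (50.8, 46.9), Olfr432 (36.7, 38.7) and Olfr1358 (47.1, 14.4). All 4 of these were also held by FL 3, at 58.4 to 76.0, so a control library of the other set had them. Under the looser rule with 1 library left out, the lost count was 58 without FL 1, 23 without FL 2 and 19 without KO 2. The gained count was then 93 without KO 1 and 52 without KO 2. The share of all regions under that rule is not given, so these counts are not a result about receptor regions.

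Within set 2, with 1 library a side and no replicate check, 78 of 354 receptor regions of FL 3 had no peak in KO 3 (22.0%, against 14.4% of all regions), and 59 of 335 regions of KO 3 had none in FL 3 (17.6%, against 15.3%). In lists of equal length the shares were 17.9% against 13.0% and 15.9% against 12.7%. The background lay below the exact 95% interval of the lost share (17.8% to 26.7%) and inside that of the gained share (13.7% to 22.1%), which cover counting error only. Receptor regions were also weaker: their median mean percentile was 26.4, against 32.2 for all merged regions, and the part of this in the result was not tested.

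**Figure D5:**
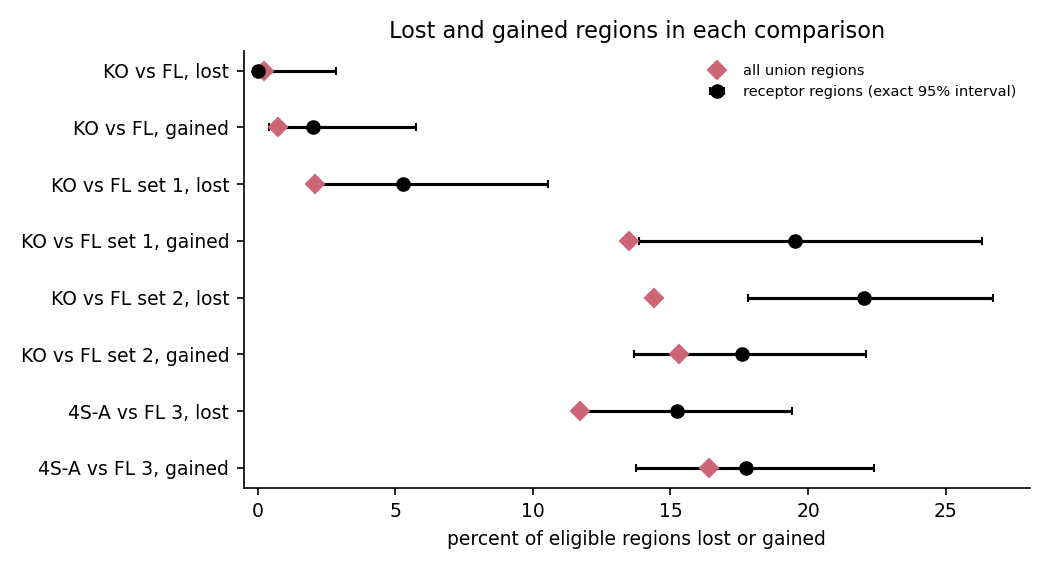
Percent of eligible regions called lost or gained (horizontal axis) in each comparison (rows), for receptor regions (black points with exact 95% intervals, counting error only) and for all merged regions (red diamonds). Over all 6 libraries 0% of receptor regions were lost and 2.01% gained. The background lay inside the receptor interval in all rows except both of KO in set 1 and the losses of KO in set 2, where it lay below. In set 1 the margins were narrow. The background was 2.07% against a lower bound of 2.14% for losses, and 13.5% against 13.8% for gains.

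Against FL 3, which is also the control of KO 3, 54 of 354 receptor regions were lost in both 4S-A libraries (15.3%, against 11.7% of all regions) and 57 of 321 were gained (17.8%, against 16.4%). In lists of equal length 28 of 168 were lost (16.7%, against 13.9%) and 38 of 162 gained (23.5%, against 13.8%). Under the looser rule with 1 library left out, the lost count was 84 without 4S-A 1, and the gained count was 101 without 4S-A 2. These counts stand without the share of all regions under that rule and are not a result about receptor regions. The strongest lost regions were held by FL 3 and no other library, and lay near Vmn1r43 (2 regions, 65.4 and 50.0), Olfr401 (45.8) and Olfr460 (38.4). The strongest gained region lay 2919 bp from Olfr1254 (chr2:89791786-89792584), inside the large chromosome 2 cluster and 637487 bp from the nearest other gene. It stood at percentile 94.0 in 4S-A 1 and 89.2 in 4S-A 2 and was held by none of the other 6 libraries. Of 8230 merged regions held by both 4S-A libraries alone, 9 were at or above this mean percentile, this region included. The next were the Olfr550 start described above and a region near Olfr584, at 64.5 and 68.5 in 4S-A and 47.6 in KO 3. A region near Olfr1028 was called gained at 33.5 and 37.0, but FL 1, FL 2, KO 1 and KO 2 held it at 88.7, 76.5, 78.2 and 84.1 and KO 3 at 19.7, so only FL 3 of the 8 libraries lacked it.

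Regions held by both 4S-A libraries and no other numbered 33 of 593 (5.56%), against 5.95% of all regions, a share near the background. After those of Olfr1254 and Olfr550, the strongest lay 1775 bp from Olfr1310 (59.7 and 58.0), close to the start region of that gene, and 8228 bp from Olfr140 (58.3 and 58.6). Regions held by 2 or more KO libraries and no other numbered 12 (2.02%, against 0.95%), of which KO 1 held 10, KO 2 held 12 and KO 3 held 4. The strongest lay near Olfr1033 (47.9 in KO 1, 46.9 in KO 2), Olfr1449 (29.2, 42.2), Olfr640 (14.8, 54.7) and Olfr1302 (29.2, 39.5), none of them in KO 3. Regions held by 2 or more FL libraries and no other numbered 5 (0.843%, against 0.275%). Both shares were above their backgrounds, on 12 and 5 regions.

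Sets were compared in the same way. All 4 set 2 libraries held 49 receptor regions (8.26%, exact 95% interval 6.18% to 10.8%, against 7.71% of all) that no set 1 library held, a share near the background, and 0 were held by all of set 1 and none of set 2 (against 0.0759%). The strongest of the 49 lay inside Vmn2r1 (FL 3 at 71.3, KO 3 at 61.6, the 4S-A libraries at 77.6 and 76.8) and near Vmn2r3, Olfr461 and Olfr750. Set, Cre driver, control genotype and list length cannot be told apart here.

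Among the 109 receptor regions held by all FL and KO libraries, 2 had every KO percentile above every FL percentile (1.83%, against 3.86% of all such regions) and 3 had every KO percentile below (2.75%, against 0.965%). The median difference of KO and FL mean percentiles was 0.858 over these 109 and 2.11 over all 34313 regions. In lists of equal length no receptor region was higher in KO and 5 were lower, so the calls of higher rank were lost. Vmn2r29 had 1 region in each class: that over its start was higher in KO (87.5 against 77.4), and that 3262 bp away was lower (74.7 against 80.8). A region near Olfr1441 was higher (80.1 against 73.8), and regions near Vmn2r129 (72.6 against 81.4) and Olfr283 (58.2 against 68.2) were lower. Leaving out 1 library loosens this rule too, so the counts can only rise or stay. The count of higher regions was 22 without FL 3, 8 without KO 1, 7 without KO 3, 6 without KO 2, 5 without FL 1 and 4 without FL 2. That of lower regions was 10 without KO 2, 9 without KO 3 and 6 without FL 1 or FL 3. Under the looser rule the share of all regions is not given.

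Genes that act on receptor choice or on receptor heterochromatin had regions in every library. All 24 genes of that list, among them the LSD1 gene Kdm1a, the HP1 genes Cbx1, Cbx3 and Cbx5, the H3K9 methyltransferase genes Setdb1, Suv39h1, Suv39h2, Ehmt1 and Ehmt2 and the DNA methyltransferase genes, did so within 1 kb, as did 62.7% of all 21627 protein-coding genes. In KO against FL over all 6 libraries, 0 of 40 eligible regions of the list were lost (against 0.214% of all) and 1 of 44, at Ehmt1, was gained (2.27%, against 0.754%). In 4S-A against FL 3, 15 of 91 were lost (16.5%, against 11.7%) and 4 of 74 were gained (5.41%, against 16.4%).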

How the data were processed

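Each of the 8 libraries was made from about 5000 sorted cells and amplified for 13 to 16 PCR cycles, per the labels' protocols. The submitters' processing notes name mm10 and, with no role or setting, MACS2, Picard, featureCounts, Bowtie2 2.2.9 and Trim Galore 0.4.4. Each library has its own deposited narrowPeak list, from peak calling on single samples. The deposited columns hold a score, a fold enrichment (ratio) at the summit, the −log10 p and −log10 q, and the summit position. Of these the authors' −log10 q gave the percentile of a peak in its list and the fold enrichment an alternative percentile. No value is scaled between libraries. Peak names inside the lists of KO 1 and KO 2 carry other replicate numbers than the labels, and the labels were followed.

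Peaks were merged, matched to RefSeq gene spans and counted with Python 3.11.15, NumPy 2.4.6, pandas 2.3.3 and SciPy 1.17.1, and the counting was tested on simulated data. The members and lists were chosen with earlier results of these data known. Regions were named by their nearest receptor gene: the 10 strongest held by all libraries, up to 6 lost or gained in KO against FL, and the 4 strongest in each other class. The groups share replicate numbers. Deviations of same-numbered FL and KO libraries from their group means correlated at r = 0.265, 0.195 and 0.523 over 34313 regions held by all 6, which is across regions and not across samples. The differently numbered pairs of set 1 gave 0.246 (FL 2 with KO 1) and 0.140 (FL 1 with KO 2), so within set 1 the number did not separate the pairs. Intervals cover counting error only and treat regions as independent, though many lie in the same clusters.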

Additional observations from a re-analysis of the deposited data

Results flagged for a closer look

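4 of the named regions moved in opposite directions in the 2 sets. In set 1 both KO percentiles lay on 1 side of both FL percentiles, and in set 2 KO 3 lay on the other side of FL 3. Only named regions held by all 8 libraries were looked at. The share of all regions with this pattern is not given, and with so few libraries chance can produce it. The difference between the sets was not tested, set 2 has 1 library a side, and percentiles also follow list length. For the region near Vmn2r30, the KO mean minus the FL mean was 2.62 percentiles in set 1 and -5.19 in set 2. For the region inside Olfr1301 it was 4.14 and -4.12. For the region near Vmn2r1 (chr3:64235321-64235908) it was 12.25 and -3.82. For the region near Olfr283 (chr15:98389532-98390213) it was 8.76 and -20.1.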

How the results depend on the processing

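Relative density kept its sign and the single-library share its sign under every alternative run, and no test of KO against FL can pass 0.05 with 3 libraries a side. Density changed sign in lists of equal length (-0.182), and the median percentile changed sign with a flank of 50 kb (-1.24) and with percentiles of fold enrichment (-0.302). The replicate block left the differences in density (0.435), relative density (-0.00597), single-library share (-4.64) and median percentile (0.726) as they were, gave exact sign-flip permutation p = 0.5, 0.5, 0.5 and 0.75 for them, and changed no call. In lists of equal length the counts were 1 lost and 0 gained in KO against FL, 13 and 16 in set 1, 30 and 26 in set 2, 28 and 38 in 4S-A, and 0 higher and 5 lower in rank. For summits inside genes they were 0 gained in KO, 2 and 5 in set 1, 8 and 11 in set 2, 5 and 6 in 4S-A, and 0 and 0 in rank. With a flank of 50 kb they were 6 gained in KO, 52 gained in set 1, 122 and 119 in set 2, 90 and 93 in 4S-A, and 6 and 7 in rank. With no other gene near they were 1 gained in KO, 21 gained in set 1, 50 and 28 in set 2, 31 and 37 in 4S-A, and 0 higher in rank. A change of flank or of neighbours changes how many regions are counted, and the share of all regions is not given for these settings. The 4S-A minus FL 3 median, an alternative added after the data were seen, was -3.78 in lists of equal length, 5.03 inside genes, 4.27 with 50 kb and 9.61 with no other gene near. Receptor minus tandem-family relative density, also added, was -0.00938 in lists of equal length (exact permutation p = 0.0625), 0.0376 inside genes (p = 0.015625, exact) and -0.00836 with no other gene near (exact permutation p = 0.109); the cause was not tested.

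Leaving out 1 library at a time gave KO minus FL densities of -0.459 to 1.74, relative densities of -0.0133 to -0.00137, single-library shares of -7.24 to -1.11 points and median percentiles of -0.153 to 2.32. Lost and gained counts ran from 0 to 4 and 3 to 20 in KO against FL. They ran from 8 to 58 and 43 to 93 in set 1, and from 60 to 84 and 73 to 101 in 4S-A. Rank counts ran from 4 to 22 higher and 3 to 10 lower. Lost, gained and rank counts can only rise or stay when a library is left out, and the share of all regions is not given for them. Mean percentiles of named regions were labelled moved when they changed by more than their spread between libraries. In lists of equal length 33 of 51 were so labelled, all downward. Cutting a longer list to its strongest peaks lowers the percentiles of the peaks kept, so a fall was largely built in. With fold enrichment 35 of 52 were labelled, 22 of them upward, and at a −log10 q of at least 3, 5 of 52. Regions near Vmn1r43, Olfr401 and Olfr460, held by 1 library, have no spread and were labelled moved whatever their change. At a −log10 q of at least 3, only the region near Olfr140 was labelled besides these. Read depth, which is unknown, limits what a missing peak can show.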
